A study of Mus musculus with 6 samples.

Results

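The 35 genes described here encode the enzymes of cholesterol and fatty acid synthesis and the proteins that control them, and they were taken by gene symbol from the 53465 genes of the count table. They comprise 5 regulators, 18 genes of the sterol branch and 12 genes of the fatty acid branch, and all 35 symbols were found. RNA was sequenced from 6 primary C57BL/6 liver tumour cell lines of 2 genotypes, Myc_Utx (lines 2A, 2B and 2D) and Myc_p53 (lines 1, 2 and 3). Tumours had been induced in adult female mice by hydrodynamic tail vein injection, which delivers plasmids to a subset of hepatocytes. Every line carries a Myc transposon driven by the EF1a promoter. In addition, Cas9 and a guide RNA disrupted Kdm6a, also called Utx, a histone H3K27 demethylase gene on the X chromosome, in the Myc_Utx tumours and p53 in the Myc_p53 tumours. No line without either lesion was part of the comparison, so an effect of Kdm6a loss and an effect of p53 loss cannot be told apart. Each line is 1 independent tumour-derived culture, kept in complete DMEM whose lipid content is not given in the sources used here.

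Animal cells make cholesterol from acetyl-CoA through mevalonate, squalene and lanosterol, and fatty acids from acetyl-CoA through malonyl-CoA. Both routes are switched on by the SREBP transcription factors, which SCAP carries from the endoplasmic reticulum to the Golgi for cleavage when sterols are scarce and which INSIG proteins hold back when sterols are plentiful. SREBP2 acts mainly on the sterol genes and SREBP1 mainly on the fatty acid genes. Liver is a main site of both routes in the body.

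Most sterol genes had a fold change slightly above 0 in the Myc_Utx lines, although 16 of 18 did not pass the test, whereas in the fatty acid branch the synthase Fasn fell and the elongase Elovl1 rose. Of the 34 genes with enough counts to be tested, 4 passed an adjusted p of 0.05, namely Acat2, Nsdhl and Elovl1, which rose, and Fasn, which fell. That is 11.8% of the tested members, against 14.7% of all 11510 genes tested, 6.99% higher and 7.69% lower. In the sterol branch 17 of 18 genes had a log2 fold change above 0, or 94.4%, and the median was 0.36, from -0.10 to 0.99. Some of these values were close to 0, and 14 of 18 lay above it with scaling by total counts only or with at least 10 counts required in every line, and 15 with DESeq2 size factors. With offsets for gene length in the fit it was 16 of 18, with a median of 0.28. Over all genes tested 49.2% lay above 0, and the median was -0.0117. In the fatty acid branch 6 of 11 tested genes lay above 0, with a median of 0.06 and a range from -0.61 to 0.62. Fold changes are log2 of Myc_Utx over Myc_p53 from edgeR's quasi-likelihood test, with their standard error (SE), and p-values were adjusted over all genes tested.

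The calls were few and most were lost without 1 line. When any line was left out, the number of members called in the sterol branch was between 0 and 2, and it stayed at 2 only without Myc_p53_2. Over all genes the same fits called between 4 genes, without Myc_Utx_2A, and 1954 genes, without Myc_p53_2, in place of 1690.

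**Figure D1:**
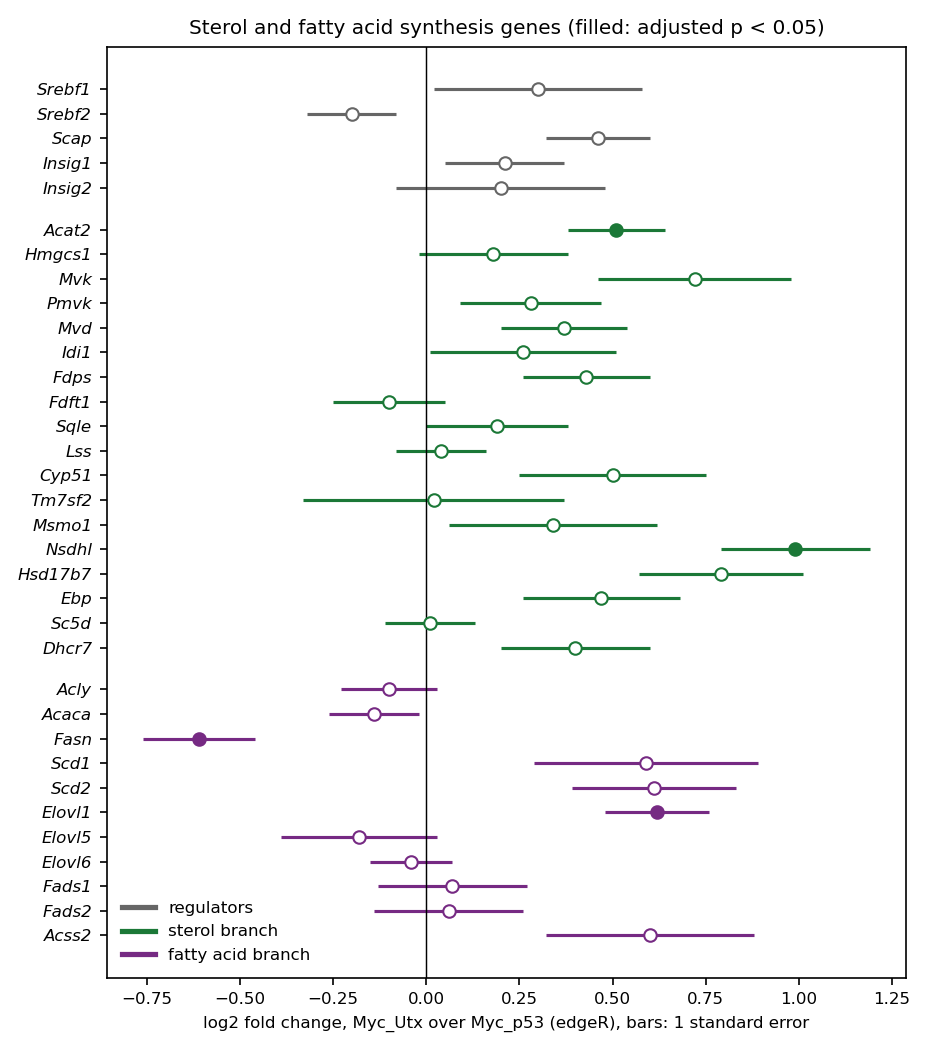
Log2 fold change (x axis) of each of the 34 tested genes (y axis), Myc_Utx over Myc_p53, with 1 SE from 3 lines a group. Filled points passed the adjusted p of 0.05, and 17 of the 18 sterol genes, in green, sit to the right of 0, whereas Fasn lies farthest left at -0.61.

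The promoters of the 4 called genes, and that of Hmgcs1, the 1 gene with the sterol element searched among the 29 members that have a promoter in the RefSeq table, are shown because most sterol genes lay on 1 side of 0. Each run is the 250 bases before the RefSeq transcription start (GRCm38.p6), 5′ to 3′ on the strand of the gene, at chr17:12960726-12960975 for Acat2 (minus), chr13:119690101-119690350 for Hmgcs1 (plus), chrX:72918271-72918520 for Nsdhl (plus), chr11:120824548-120824797 for Fasn (minus) and chr4:118427843-118428092 for Elovl1 (plus). Capitals mark matches on either strand to the sterol regulatory element TCACNCCAC, the CCAAT box bound by NF-Y and the GC box GGGCGG bound by Sp1.
Acat2: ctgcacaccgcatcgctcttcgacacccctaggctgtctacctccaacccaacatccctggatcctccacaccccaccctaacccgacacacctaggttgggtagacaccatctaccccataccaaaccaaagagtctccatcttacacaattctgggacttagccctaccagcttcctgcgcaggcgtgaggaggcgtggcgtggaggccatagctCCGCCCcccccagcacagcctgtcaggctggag
Hmgcs1: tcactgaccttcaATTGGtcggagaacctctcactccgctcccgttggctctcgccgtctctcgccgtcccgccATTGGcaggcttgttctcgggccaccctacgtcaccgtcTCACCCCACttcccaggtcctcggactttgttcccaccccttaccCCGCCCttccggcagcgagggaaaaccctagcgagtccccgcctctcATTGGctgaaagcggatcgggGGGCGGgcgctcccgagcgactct
Nsdhl: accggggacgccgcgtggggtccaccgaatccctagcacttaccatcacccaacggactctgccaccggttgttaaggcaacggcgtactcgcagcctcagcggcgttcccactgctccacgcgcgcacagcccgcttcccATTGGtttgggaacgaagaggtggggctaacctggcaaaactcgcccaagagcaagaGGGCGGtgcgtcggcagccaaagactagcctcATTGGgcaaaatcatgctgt
Fasn: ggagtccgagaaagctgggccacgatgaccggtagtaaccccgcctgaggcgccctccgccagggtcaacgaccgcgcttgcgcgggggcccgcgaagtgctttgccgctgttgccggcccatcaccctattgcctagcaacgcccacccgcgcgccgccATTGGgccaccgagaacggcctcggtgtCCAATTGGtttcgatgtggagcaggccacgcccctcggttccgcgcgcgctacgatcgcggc
Elovl1: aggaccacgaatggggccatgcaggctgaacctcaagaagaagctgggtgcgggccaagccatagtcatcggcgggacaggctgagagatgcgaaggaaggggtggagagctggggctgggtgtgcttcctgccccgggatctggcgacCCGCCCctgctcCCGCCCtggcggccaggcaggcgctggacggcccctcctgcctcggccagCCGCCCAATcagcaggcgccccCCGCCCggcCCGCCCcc

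Of the 35 members 29 had promoter windows of 300 bases in the RefSeq table, 250 before and 50 after a start, and these 29 genes had 38 windows. A gene was counted when any of its windows held a match, so genes with several windows had more bases searched. A CCAAT box was found for 24 of the 29 genes, and for 14 of 15 sterol genes, or 93.3%, against 43.6% of the 8860 tested genes with a window and 41.1% of all 27025 genes with one. In the fatty acid branch 6 of 9 genes had one. At least 2 CCAAT boxes were found for 9 of the 15 sterol genes, or 60%, and for 17.4% of the tested genes. The Fasn stretch shown holds 3 matches, of which the last 2 overlap as CCAATTGG, and the Nsdhl stretch holds 2 of the 4 in its window. No match was present in the Acat2 stretch shown, where the 1 capital run is a GC box. GC boxes were found for 14 of 15 sterol genes, or 93.3%, and for 4 of 9 fatty acid genes, or 44.4%, against 71.5% of the tested genes, and in Elovl1 a GC box and a CCAAT box share bases. The E-box CACGTG, the best known Myc site, was found for 6 of the 29 genes, or 20.7%, against 12.3% of the tested genes, and was not marked in the runs. TCACNCCAC was found for 1 of the 29 genes, as TCACCCCAC starting 137 bases before the Hmgcs1 start, and in 1.43% of the tested genes. The 6 members with no window, among them Scd1, Fdps and Sqle, were not searched. These matches describe letters in a window and not bound sites.

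None of the 5 regulators passed the adjusted p, and 4 of them had a log2 fold change above 0, with a median of 0.21. The largest was Scap, the SREBP escort protein, at 117, 115 and 100 CPM (counts scaled to TMM-normalized library sizes) in Myc_Utx_2A, 2B and 2D and 92.3, 72.3 and 77.3 CPM in Myc_p53_1, 2 and 3. Every Myc_Utx line lay above every Myc_p53 line. Its log2 fold change was 0.46 (SE 0.14, edgeR adjusted p = 0.0686), and DESeq2 gave an adjusted p of 0.0444. Srebf2, which encodes SREBP2, stood at 342, 346 and 301 CPM against 419, 350 and 366 CPM. The Myc_Utx lines were the 3 lowest, yet by a log2 fold change of only -0.20 (SE 0.12, adjusted p = 0.266), with a 95% interval from -0.48 to 0.08. Srebf1, which encodes SREBP1, was at 214, 125 and 179 CPM against 116, 191 and 114 CPM. Its lines overlapped, since Myc_p53_2 was above Myc_Utx_2B and 2D, and the log2 fold change was 0.30 (SE 0.28, adjusted p = 0.481). Part of the Srebf1 locus overlaps Rai1 on the opposite strand, which held 4585 counts over the 6 lines, and strandedness of the counting is not given in the sources used here. The retention proteins Insig1, itself a classic SREBP target, and Insig2 had log2 fold changes of 0.21 (adjusted p = 0.403) and 0.20 (adjusted p = 0.655), and their lines overlapped.

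In the early sterol pathway, from acetyl-CoA to farnesyl diphosphate, Acat2 passed the test. Acat2 is the cytosolic acetyl-CoA acetyltransferase that makes acetoacetyl-CoA, the first step. It lay at 61.4, 58.4 and 62.1 CPM in the Myc_Utx lines and at 42.2, 45.6 and 39.8 CPM in the Myc_p53 lines. The groups were apart and the lines within each group lay close together, with means of 60.7 ± 1.97 and 42.5 ± 2.92 CPM (SD, n = 3). The difference was 1.43-fold, a log2 fold change of 0.51 (SE 0.13, adjusted p = 0.0441), and it kept its call in 1 of the 6 fits that left out a line. With length offsets in the fit, Acat2 stood at 0.36 (adjusted p = 0.0948), and the call was lost. Hmgcs1, the next enzyme and a standard SREBP2 target, was at 221, 234 and 170 CPM against 229, 148 and 174 CPM. Its groups overlapped and its log2 fold change was 0.18 (SE 0.20, 95% interval -0.31 to 0.67, adjusted p = 0.556). Mvk, mevalonate kinase, lay at 32.7, 25.1 and 21.6 CPM against 12.2, 16.3 and 19.8 CPM. All 3 Myc_Utx lines were higher, but the spread inside the groups was wide and the log2 fold change of 0.72 (SE 0.26) missed the threshold at an adjusted p of 0.107. The kinase Pmvk, the decarboxylase Mvd, the isomerase Idi1 and the farnesyl diphosphate synthase Fdps followed at 0.28, 0.37, 0.26 and 0.43 on the log2 scale, with adjusted p between 0.129 for Fdps and 0.503 for Idi1. Of these, Mvd and Fdps had groups that did not overlap. With length offsets, Pmvk, Mvd, Idi1 and Fdps were at 0.04, 0.15, 0.20 and 0.42.

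From squalene to lanosterol the genes differed little. Squalene synthase Fdft1 was the sterol gene with a value below 0, at -0.10 (SE 0.15, adjusted p = 0.672), and it overlaps the highly counted Ctsb on the opposite strand. Squalene epoxidase Sqle, a rate-controlling enzyme, stood at 139, 211 and 148 CPM against 155, 125 and 156 CPM. Only Myc_Utx_2B stood above the Myc_p53 lines, and the log2 fold change was 0.19 (95% interval -0.27 to 0.66, adjusted p = 0.508). Lanosterol synthase Lss had a log2 fold change of 0.04 (SE 0.12).

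After lanosterol, the genes for removal of the methyl groups at carbon 4 held the largest differences of the branch. Nsdhl, the X-linked sterol dehydrogenase of that step, lay at 48.5, 61.8 and 44.5 CPM in the Myc_Utx lines and at 31.3, 23.4 and 23.1 CPM in the Myc_p53 lines. The groups did not overlap and the means were 51.6 ± 9.04 and 25.9 ± 4.66 CPM (SD, n = 3). This was 1.99-fold, a log2 fold change of 0.99 (SE 0.20, 95% interval 0.50 to 1.48, adjusted p = 0.0295), and it kept its call in 2 of the 6 fits that left out a line. Hsd17b7, the keto-reductase of the same step, was at 39.9, 36.7 and 34.1 CPM against 15.3, 23.4 and 25.2 CPM. The groups were again apart, and the log2 fold change of 0.79 (SE 0.22) had an adjusted p of 0.0599 in edgeR and 0.0268 in DESeq2. The oxidase Msmo1, which opens that step, was at 72.8, 125 and 72.1 CPM against 81.7, 53.8 and 77.9 CPM. Its groups overlapped, with 0.34 (SE 0.28, adjusted p = 0.42). The demethylase Cyp51, which acts just before on carbon 14, reached 162, 228 and 124 CPM against 135, 96.0 and 134 CPM. Myc_Utx_2D lay below 2 of the Myc_p53 lines, and the log2 fold change was 0.50 (SE 0.25, adjusted p = 0.209). Cyp51 overlaps Akap9 on the opposite strand, which held 3437 counts. Tm7sf2, a sterol reductase, was low in every line at 2.69 to 4.87 CPM, with a log2 fold change of 0.02 (SE 0.35), and it overlaps Vps51 on the same strand, which held 1347 counts. Among the last enzymes, the X-linked isomerase Ebp and the reductase Dhcr7 were at 0.47 (adjusted p = 0.161) and 0.40 (adjusted p = 0.203), while the desaturase Sc5d was at 0.01 (SE 0.12).

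By rank alone, 7 of the 18 sterol genes (Acat2, Mvk, Mvd, Fdps, Nsdhl, Hsd17b7 and Dhcr7) had every Myc_Utx line above every Myc_p53 line, and none had the reverse. Over all genes tested 42.0% had groups that did not overlap, 21.1% with Myc_Utx higher and 20.9% with Myc_Utx lower. At an unadjusted p under 0.05 the branch had 5 genes higher (Acat2, Fdps, Hsd17b7, Mvk and Nsdhl) and none lower, where 35% of all genes passed, 16.6% higher and 18.3% lower. DESeq2 called 3 of the 18, adding Hsd17b7 to the other two, against 21.4% of the genes it tested.

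**Figure D2:**
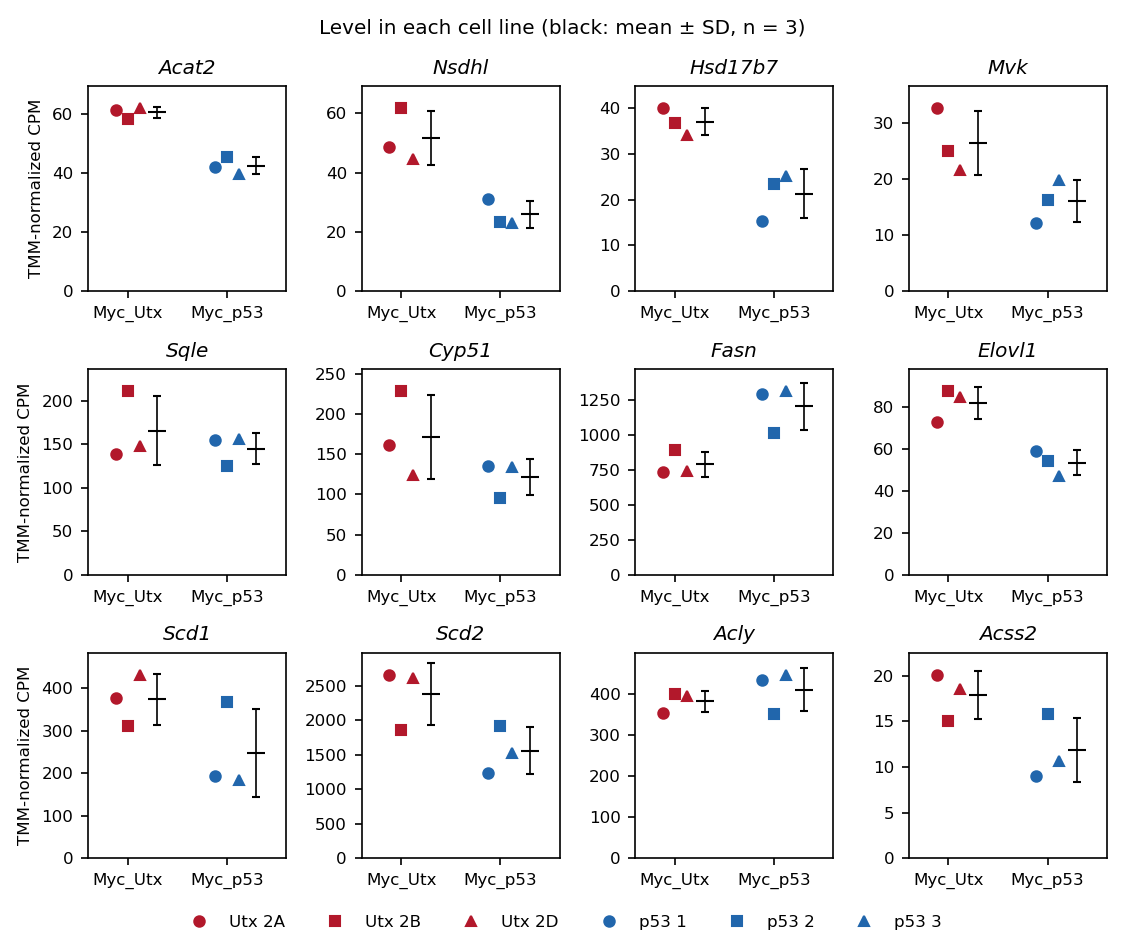
TMM-normalized CPM (y axis, from 0) of 12 genes in each line of the 2 groups (x axis), with the mean and SD of 3 lines in black. Acat2, Nsdhl, Hsd17b7, Mvk and Elovl1 have all Myc_Utx lines on top and Fasn has them at the bottom, whereas Sqle, Cyp51, Scd1, Scd2, Acly and Acss2 overlap.

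In the fatty acid branch, Fasn, the multi-domain synthase that builds palmitate, fell. It was at 736, 897 and 747 CPM in the Myc_Utx lines and at 1293, 1015 and 1314 CPM in the Myc_p53 lines. The groups did not overlap, and Myc_p53_2 was the Myc_p53 line nearest to the Myc_Utx lines. The mean of 793 ± 90.1 CPM was 0.657 times as high in the fit as that of the Myc_p53 lines, 1207 ± 167 CPM (SD, n = 3), with a log2 fold change of -0.61 (SE 0.15, 95% interval -0.96 to -0.25, adjusted p = 0.0445). Fasn is long, at 10947 bases of listed length against a median of 4441, and long genes tended to be lower in the Myc_Utx libraries. The 1029 tested genes of 9000 to 13000 bases had a median log2 fold change of -0.24, and Spearman's rho between length and fold change over all genes tested was -0.249. With length offsets in the fit, Fasn stood at -0.38 (adjusted p = 0.119), and the call was lost. It was kept in 1 of the 6 fits that left out a line.

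The genes that supply and activate the carbon for Fasn did not pass the test. Acly, which splits citrate into cytosolic acetyl-CoA, was at 352, 399 and 394 CPM against 434, 350 and 446 CPM. The groups overlapped, with a log2 fold change of -0.10 (95% interval -0.41 to 0.20, adjusted p = 0.597). Acss2, which makes acetyl-CoA from acetate, was at 20.1, 15 and 18.5 CPM against 9.01, 15.8 and 10.7 CPM. Myc_p53_2 again lay among the Myc_Utx lines, and the log2 fold change of 0.60 (SE 0.28) had an adjusted p of 0.18. Acss2 overlaps Gss and Ggt7 on the opposite strand, which held 1878 and 449 counts. Acaca, the cytosolic acetyl-CoA carboxylase that makes malonyl-CoA, was at -0.14 (SE 0.12, adjusted p = 0.435). Its mitochondrial relative Acacb had 1, 7 and 4 counts in the Myc_Utx lines and 18, 9 and 8 in the Myc_p53 lines, too few to be tested.

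Elovl1, the elongase of very long saturated and monounsaturated chains, rose. It was at 73.0, 87.4 and 84.8 CPM against 58.8, 54.3 and 47.1 CPM, with no overlap. The difference was 1.53-fold, a log2 fold change of 0.62 (SE 0.14, adjusted p = 0.0394). The call was lost in each of the 6 fits that left out a line and with length offsets (0.49, adjusted p = 0.068). Elovl1 overlaps Cdc20 on the opposite strand, which held 8961 counts and had a log2 fold change of 0.68 (SE 0.18, adjusted p = 0.0502). Without strand, reads of the shared bases cannot be told apart.

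The stearoyl-CoA desaturases, which put the first double bond into stearate and palmitate, both tended upward but with overlapping lines. Scd1, the main liver form, was at 377, 311 and 431 CPM against 193, 367 and 183 CPM. Myc_p53_2 exceeded Myc_Utx_2B, and the log2 fold change of 0.59 (SE 0.30) had an adjusted p of 0.205. Without Myc_p53_2, the overlapping line, it was 0.99 with an adjusted p of 0.0233. Leaving out any other line gave 0.41 to 0.72, with adjusted p from 0.231 to 0.416. Scd2 was at 2657, 1854 and 2616 CPM against 1236, 1918 and 1520 CPM. Here too Myc_p53_2 exceeded Myc_Utx_2B, with a log2 fold change of 0.61 (SE 0.22, adjusted p = 0.102) and an adjusted p of 0.0428 in DESeq2. The elongases Elovl5 and Elovl6 and the polyunsaturated fatty acid desaturases Fads1 and Fads2 had log2 fold changes of -0.18, -0.04, 0.07 and 0.06, with SEs of 0.11 to 0.21 and adjusted p of 0.579 or more. For Elovl6 the 95% interval ran from -0.30 to 0.22.

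Per kilobase of listed length, Scd2 was by far the highest of the 35 genes, at a mean of 361 CPM per kb over the 6 lines. Fads2 (98.7), Fasn (91.4), Acly (75.0), Srebf2 (71.0), Scd1 (64.1) and Fads1 (61.0) followed on the same scale. The listed length of Fads2 is 1508 bases, under its 3295 bases of exon in GENCODE M21, so its value is over fewer bases than its exons hold. The same holds for Srebf2 (4989 against 7184), Fads1 (3456 against 4812) and Tm7sf2 (3484 against 4403). For 29 of the 35 members the listed length equalled all exons together, which can exceed any single transcript. The order of genes with near values therefore depends on the length used. The highest sterol genes were Hmgcs1 (42.6), Cyp51 (33.2) and Sqle (28.1), and the lowest members were Acss2 (1.46), Tm7sf2 (1.04) and Acacb (0.139). Srebf2 lay above Srebf1 (27.8), and Insig1 (24.2) above Insig2 (11.6).

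**Figure D3:**
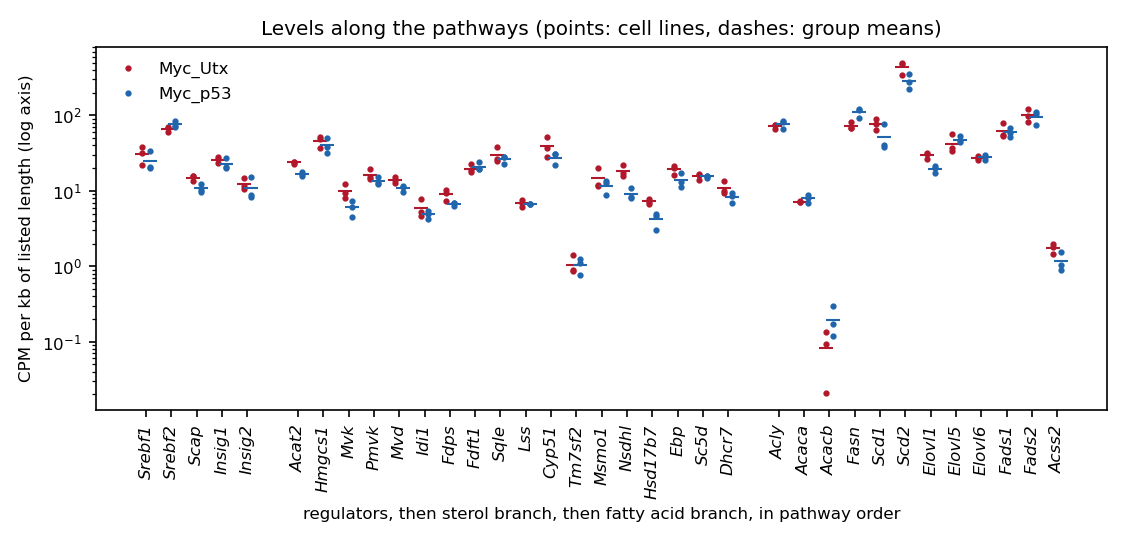
CPM per kilobase of listed length (y axis, log scale) of the 35 genes along the pathways (x axis). Points are cell lines and dashes group means. Scd2 stands at the top, at a mean of 361 over the 6 lines, and Acacb at the bottom, at 0.139.

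The lines of a group differed among themselves as much as the groups did for many members. Summed over the 18 sterol genes, the level was 1215, 1484 and 1103 CPM in the Myc_Utx lines and 1116, 936 and 1053 CPM in the Myc_p53 lines, so the sums overlapped. Myc_Utx_2B was the highest of all 6 lines for 10 of the 18 genes, and Myc_p53_2 was the lowest for 8. Sqle, Cyp51, Msmo1 and Idi1 each had Myc_Utx_2B at the top and Myc_p53_2 at the bottom. Without Myc_Utx_2B, 14 of the 18 sterol genes still lay above 0, with a median of 0.25. The 12 fatty acid genes shared no order of the lines, with 5 highest in Myc_Utx_2A and 4 highest in Myc_p53_3. Their sum was 5181, 4324 and 5010 CPM against 4094, 4482 and 4398 CPM and was dominated by Scd2. The regulator Srebf1 and the fatty acid genes Scd1 and Acss2 shared their 3 highest lines, Myc_Utx_2A, Myc_Utx_2D and Myc_p53_2. Myc_Utx_2B was next below them. Fasn, Acly, Acaca and Elovl6 were instead highest in Myc_p53_3.

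**Figure D4:**
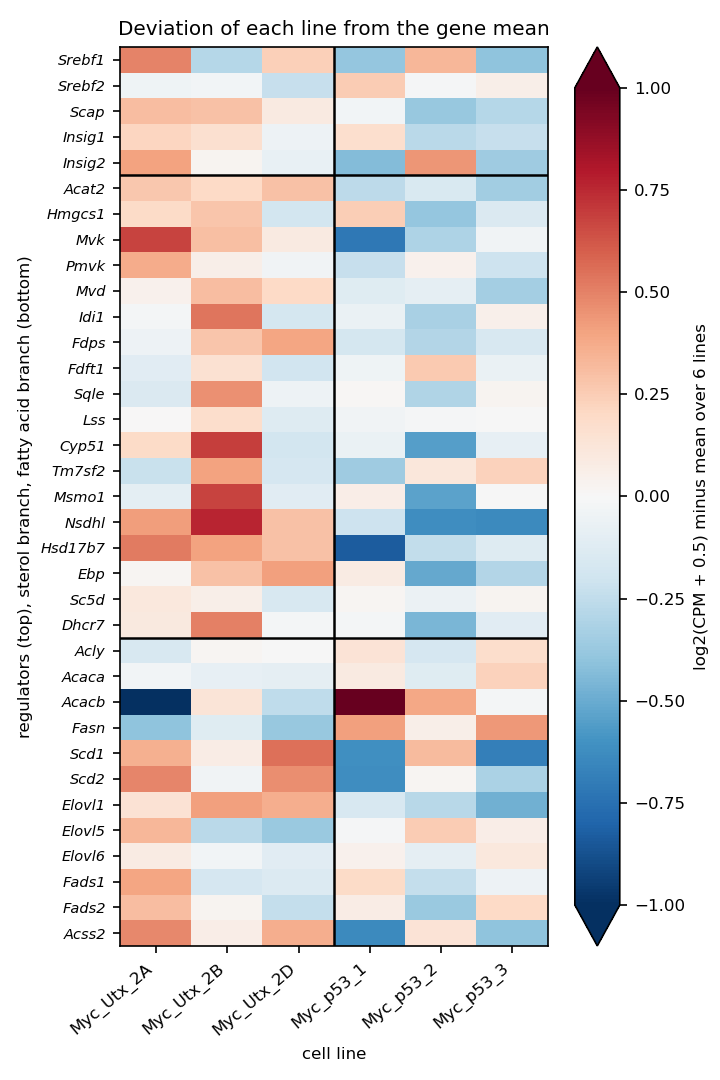
Log2(CPM + 0.5) of each gene (y axis, regulators, sterol and fatty acid branch from top to bottom) in each line (x axis) minus the mean of the gene over the 6 lines, in colour from -1 (blue) to 1 (red). Myc_Utx_2B is the reddest column of the sterol block, where 10 of 18 genes peak, and Myc_p53_2 the bluest, where 8 are lowest.

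Ratios of paired genes within a line do not depend on the scaling of the library, and none of the 7 tested separated the groups. The Srebf1 to Srebf2 ratio of levels per kilobase was 0.555, 0.319 and 0.528 in the Myc_Utx lines and 0.245, 0.483 and 0.277 in the Myc_p53 lines. The groups overlapped, with a difference of 0.50 on the log2 scale (two-sided exact permutation test, p = 0.2, adjusted p = 0.467 over 7 ratios). Scd2 exceeded Scd1 in all 6 lines, with a Scd1 to Scd2 ratio between 0.136 and 0.216. The smallest two-sided p that 3 lines against 3 allow is 0.1, and p ranged from 0.2 to 0.9 over the 7 ratios. The ratio of Scd2 to Fasn, chosen after the values were seen and therefore not tested, was 7.25, 4.15 and 7.03 in the Myc_Utx lines and 1.92, 3.79 and 2.32 in the Myc_p53 lines. It did not overlap, with Myc_Utx_2B and Myc_p53_2 nearest to each other. The trend of fold change with length, given above for Fasn, was not removed from this ratio. The listed lengths are 5453 bases for Scd2 and 10947 for Fasn.

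**Figure D5:**
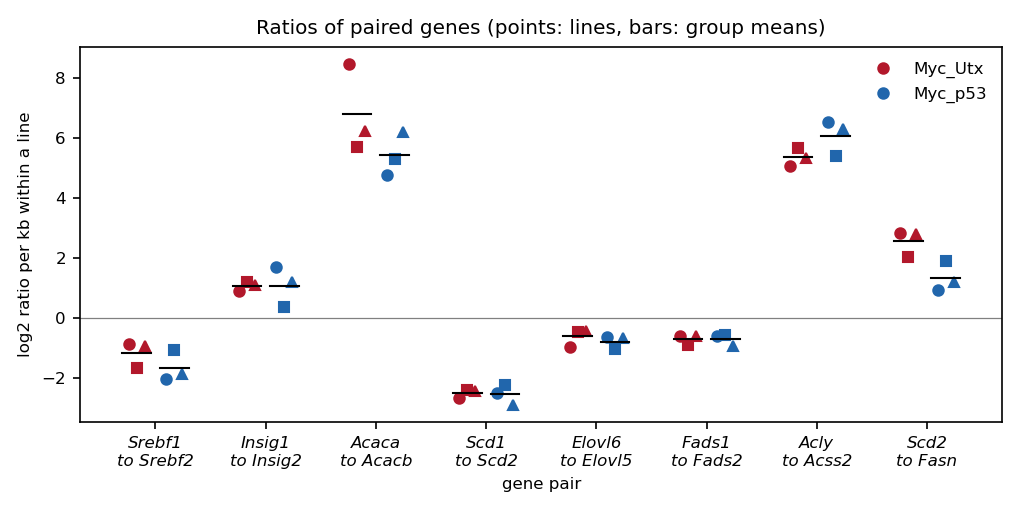
Log2 ratio of levels per kilobase within each line (y axis) for 8 gene pairs (x axis), with lines as points and group means as bars. The groups overlap for the first 7 pairs, whereas Scd2 to Fasn is higher in every Myc_Utx line. Acacb, in the third pair, rests on 1 to 18 counts a line.

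Genes next to the pathway were read from 4 further lists. Of 12 tested genes that process, degrade or act beside SREBPs, 1 passed and was lower, or 8.33% against 14.7% of all genes, and the median log2 fold change was 0.07. It was Mlxipl, which encodes ChREBP, the glucose-responsive activator of lipogenic genes. Mlxipl had 2, 2 and 0 counts in the Myc_Utx lines and 562, 46 and 23 in the Myc_p53 lines. Set against a floor of 3 counts in each Myc_Utx library, its mean was at least 55.0-fold lower in the Myc_Utx lines, and at least 9.69-fold lower without Myc_p53_1, which held most of its counts. It passed the filter on low counts through the Myc_p53 lines alone, so its call is given as a description.

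Of 14 tested further lipid synthesis and SREBP target genes, 3 rose and none fell, or 21.4% against 14.7% of all genes, with a median of -0.01. At an unadjusted p under 0.05, 3 were higher and 2 lower, against 16.6% higher and 18.3% lower over all genes. Tmem97, a sterol-responsive membrane protein, was at 92.5, 101 and 127 CPM against 59.4, 64.9 and 50 CPM, with no overlap and a log2 fold change of 0.88 (SE 0.17, adjusted p = 0.0272). Acsl3, an acyl-CoA synthetase of lipid droplet formation, was at 124, 154 and 190 CPM against 58.0, 77.7 and 59.5 CPM, with no overlap and 1.26 (SE 0.20, adjusted p = 0.0186). Acat1, the mitochondrial relative of Acat2 that serves ketone metabolism, had 0.80 (SE 0.21, adjusted p = 0.0488). The 2 lower genes, named after their values were seen, were Me1, the malic enzyme that makes NADPH (-0.75, SE 0.22, edgeR adjusted p = 0.0623, DESeq2 adjusted p = 0.0166), and Stard4, a sterol transfer protein (-0.35, SE 0.12, edgeR adjusted p = 0.101), and neither had overlapping groups.

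None of the 10 sterol export and storage genes passed, with a median of -0.37, and the 1 gene at an unadjusted p under 0.05 was the cholesterol exporter Abca1, which DESeq2 called lower and which is named after its values were seen. Abca1 was at 1.99, 0.749 and 8.46 CPM against 21.6, 155 and 23.8 CPM, with no overlap (log2 fold change -4.18, SE 1.17, edgeR adjusted p = 0.0579). It held 10, 4 and 38 counts in the Myc_Utx lines and 137, 838 and 167 in the Myc_p53 lines. The Myc_p53 lines carried it past the filter on low counts, so its values are given as a description. Of 10 tested fatty acid oxidation genes 1 rose and 1 fell, against 6.99% higher and 7.69% lower over all genes, with a median of 0.09. The medium-chain dehydrogenase Acadm was at 0.62 (SE 0.13, adjusted p = 0.0301). The edgeR calls of Mlxipl, Tmem97, Acsl3, Acat1 and Acadm were each lost in at least 4 of the 6 fits that left out a line.

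Some features of the libraries separated the groups and others overlapped. Total counts were 4656103 to 5473042 in the Myc_Utx lines and 5370608 to 6937497 in the Myc_p53 lines, so they overlapped. Kdm6a was at 39.7, 45.7 and 49.0 CPM against 69.5, 64.5 and 42.5 CPM (log2 fold change -0.39, SE 0.22, adjusted p = 0.243), and a count over the whole gene does not show whether a guide RNA edited it. The hepatocyte markers Alb, Ttr, Afp and Apoa1 were at or under 4.87 CPM in every line, although the labels give liver as the source. The other 3 markers of that list were higher in some Myc_p53 lines, with Hnf4a at 0 to 0.598 CPM in the Myc_Utx lines and 10.1, 1.48 and 6.70 CPM in the Myc_p53 lines. The sum of 10 macrophage markers was 2.79 to 6.37 CPM in the Myc_Utx lines and 42.4 to 115 CPM in the Myc_p53 lines. Of the 10, 9 did not overlap, all lower, and Adgre1, C1qc and Tyrobp had no count in any Myc_Utx line. Among the 7 with enough counts to be tested it was 6, against 20.9% of all genes tested. Those 6 passed the filter on low counts through the Myc_p53 lines alone, so the count is given as a description. Fewer cells of a type and less RNA per cell cannot be told apart in such libraries. The adipocyte markers Adipoq and Plin1 had no count in any line, and the 4 endothelial markers summed to at most 1.14 CPM. The keratin genes Krt8 and Krt18 reached 315 CPM or more in Myc_p53_1 and 3 and 47.9 CPM or less in the other 4 lines. The 4 cholangiocyte markers summed to 61.7 to 89.9 CPM in the Myc_Utx lines and 82.1 to 443 CPM in the Myc_p53 lines. Krt7 and Krt19 were lower in every Myc_Utx line. Krt7 was not tested, and it held 2 counts in Myc_Utx_2D against 3 in Myc_p53_2. Sox9 leaned the other way, with a log2 fold change of 0.94 (SE 0.37, edgeR adjusted p = 0.131) and overlapping lines. The lines also overlapped for Epcam. The 5 fibroblast markers summed to 120 to 367 and 24.8 to 424 CPM. The part of cell makeup in the lipid gene values was not tested.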

How the data were processed

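RNA of 6 cell lines was sequenced, 3 for each labelled genotype. The authors deposited unnormalized counts for each Ensembl gene and a listed gene length. Per the labels, reads were trimmed with Trimmomatic 0.36, aligned to GRCm38 with STAR 2.5.3a and counted with featureCounts 1.6.3, whereas the paper's methods name HTSeq and a human build. Coordinates equalled those of GENCODE M21 for 95.9% of genes. Genes passing filterByExpr (minimum count 10) were fitted with edgeR 4.0.16 (TMM, quasi-likelihood F test, Benjamini-Hochberg over 11510 genes, R 4.3.3), with DESeq2 1.42.0, other scalings and filters, length offsets and leaving out each line as alternatives. SE was the log2 fold change divided by the root of F. In counts simulated for this comparison over 11293 genes, 13% of 100 genes changed by a log2 of 1 and 62% of 100 changed by 2 were called, and 5.06% of calls were false. No other gene was changed there, whereas 1690 genes were called in the data. A call in the simulation therefore needed a smaller p, and its shares do not describe the data. Precision was limited by 3 lines a group and by the counts per line given above. P-values measure the spread between these cultures. All members were accounted for, and linked genes were named when past the adjusted p with a mean count of at least 50. Some genes of the linked lists are not reported here. The members and lists were chosen with earlier results of these data known. Promoters are from RefSeq.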

Additional observations from a re-analysis of the deposited data

How the results depend on the processing

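No paired analysis was possible because the labels number the lines of each genotype differently. With 3 lines a group, a log2 fold change of 1 was seldom called in the simulated counts, where few genes were changed. That share does not carry over to the data, where 1690 genes were called, among them Nsdhl at 0.99. Apart from fits without a line, 207 values kept their direction and side of the threshold under the alternatives, 9 became stronger, 9 weaker and 13 reversed. Where a value changed, the cause was not tested.

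Over all genes 1690 were called, 2859 by DESeq2, 4026 at the unadjusted p and 4 to 1954 without 1 line. Regulators called were 1 (Scap) in place of 0 with DESeq2, length offsets or the unadjusted p. Sterol genes called were 1 (Nsdhl) in place of 2 with total counts only, no filter, at least 10 counts in every line or length offsets, 5 at the unadjusted p and 0 to 2 without 1 line. Fatty acid genes called were 1 (Fasn) in place of 2 with total counts only, 0 with no filter or length offsets and 0 to 2 without 1 line. Linked genes called were 14 in place of 6 at the unadjusted p and 0 to 8 without 1 line. Without 1 line, the median log2 fold change ran from -0.08 to 0.18 in the fatty acid branch and from 0.13 to 0.39 in the regulators, and of the sterol genes between 14 and 17 of 18 lay above 0.

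The members that reversed lay between -0.14 (Acaca) and 0.07 (Fads1) in the main fit. With total counts only, Lss was at -0.02, Tm7sf2 at -0.04, Sc5d at -0.06 and Fads2 at -0.00289. With at least 10 counts in every line, Lss was at -0.000627, Tm7sf2 at -0.02 and Sc5d at -0.03. With DESeq2 size factors, Tm7sf2 was at -0.000577 and Sc5d at -0.01. With length offsets, Tm7sf2 was at -0.04, Acaca at 0.16 in place of -0.14, Elovl6 at 0.06 and Fads2 at -0.20 in place of 0.06. The Fads2 offset rests on its listed length, which is under its exon length. Without 1 line, Fdft1 ran from -0.19 to 0.02, Lss from -0.02 to 0.13, Tm7sf2 from -0.23 to 0.16, Sc5d from -0.02 to 0.10, Elovl6 from -0.09 to 0.02, Fads1 from -0.12 to 0.19 and Fads2 from -0.08 to 0.21. The log2 differences of the ratios ran from -0.38 to 0.28 for Insig1 to Insig2, from -0.13 to 0.20 for Scd1 to Scd2 and from -0.13 to 0.09 for Fads1 to Fads2.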
